A study of Mus musculus with 36 samples.

Results

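The genes of vitamin D activation, transport and sensing and of the Klotho and parathyroid hormone receptors were described across heart, kidney and liver of growing mice. The 7 genes, of 78239 in the count files, were chosen by name and matched by symbol to the Ensembl identifiers of the files. They were Cyp27b1, Cyp24a1, Cyp2r1, Vdr, Gc, Kl and Pth1r. RNA came from wild-type male C57BL/6NCrl mice, an inbred substrain, on a standard chow diet, which were 8, 10 or 12 weeks old when killed under ketamine and xylazine anaesthesia. There were 4 libraries for each of the 9 groups of tissue and age, 36 in all, and polyA RNA was sequenced. No treatment or genotype set the groups apart, and all groups share the strain, sex, diet and anaesthesia. The study calls the 4 libraries of a group biological replicates, and which libraries came from the same mouse is not given in the sources used here. Organ tissue was homogenized, so fewer cells of a type and less RNA per cell cannot be told apart in any value below.

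Vitamin D is inactive until it has been hydroxylated in steps, first in liver at carbon 25, where Cyp2r1 is the main enzyme, and then in the proximal tubule of the kidney by Cyp27b1, which makes the active hormone calcitriol. Cyp24a1 starts the breakdown of both the precursor and the hormone, Gc is the vitamin D binding protein that carries them in plasma, and Vdr is the nuclear receptor of the hormone. Parathyroid hormone acts in the kidney through Pth1r and raises Cyp27b1, while fibroblast growth factor 23 acts through a receptor that needs Klotho, the product of Kl, and lowers Cyp27b1 and raises Cyp24a1. The hormone itself represses Cyp27b1 and induces Cyp24a1. These statements are textbook background and not results of these data.

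In GRCm39, Cyp27b1 (ENSMUSG00000006724) lies on chromosome 10 from 126884119 to 126888875, plus strand. Cyp24a1 (ENSMUSG00000038567) lies on chromosome 2 from 170324628 to 170339065, minus strand. Cyp2r1 (ENSMUSG00000030670) lies on chromosome 7 from 114147807 to 114162221, and Vdr (ENSMUSG00000022479) on chromosome 15 from 97752306 to 97808511, both minus strand. Gc (ENSMUSG00000035540) and Kl (ENSMUSG00000058488) share chromosome 5, Gc from 89561689 to 89605757 on the minus strand and Kl from 150876072 to 150917284 on the plus strand. Pth1r (ENSMUSG00000032492) lies on chromosome 9 from 110550767 to 110576259, minus strand. All 7 are annotated as protein coding, and all values below are read pairs on their exons.

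The start regions of 6 of the 7 genes were found in the RefSeq promoter table (build GRCm38.p6), and Cyp24a1 was not among them. The 250 bases before the start are shown for Cyp27b1, the gene whose kidney level differed most between libraries, and for Kl, whose level differed least. The Cyp27b1 stretch is chr10:127047996-127048245 and the Kl stretch chr5:150952357-150952606, both on the plus strand of GRCm38.p6 and written 5′ to 3′. Capitals mark a TATATA run in Cyp27b1 and, in Kl, a match on the opposite strand to the half-site GGGTCA of nuclear receptors.
Cyp27b1: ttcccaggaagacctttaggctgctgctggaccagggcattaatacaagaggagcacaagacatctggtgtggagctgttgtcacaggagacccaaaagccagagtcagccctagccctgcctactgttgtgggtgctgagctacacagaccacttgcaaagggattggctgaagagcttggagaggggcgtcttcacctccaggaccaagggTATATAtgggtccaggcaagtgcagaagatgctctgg
Kl: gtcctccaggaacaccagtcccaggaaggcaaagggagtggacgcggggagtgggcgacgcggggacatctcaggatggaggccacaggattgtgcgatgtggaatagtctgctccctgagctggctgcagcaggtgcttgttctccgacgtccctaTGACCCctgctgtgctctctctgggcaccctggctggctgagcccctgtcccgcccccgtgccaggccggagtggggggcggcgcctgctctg
The TATATA run of Cyp27b1 starts at position -37 from the start site. A TATAAA or TATATA run between -45 and -20 on the gene's own strand was found in 3.34% of the 27025 gene symbols with a promoter. Among the 6 members with a promoter, no other had one. The Cyp27b1 stretch holds 1 CpG and 54.4% G or C, and the Kl stretch 13 CpGs and 66.8%, against medians of 6 and 52.4% over all promoters. Of all promoters, 18.8% had as few CpGs as Cyp27b1 or fewer, and 14.2% had as high a G and C content as Kl or higher.

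The hormone receptor binds pairs of 6-letter half-sites spaced by 3 letters. With AGGTCA or AGTTCA or GGTTCA or GGGTCA as half-sites, both strands were searched. No pair with that spacing was found in the 250 bases of the 6 members with a promoter, and 0.0444% of all symbols held a pair. Cyp24a1 could not be searched. Single half-sites were found at -93 for Kl, at -91 for Vdr (AGTTCA) and at -109 for Cyp2r1 (GGTTCA), all on the opposite strand, and none for Cyp27b1, Gc or the 3 Pth1r start sites. Single half-sites were common, in 41.8% of all symbols. A match is a description of letters, and a missing match says only that these letters are not in this window.

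Each library held 21031599 to 33637390 counted pairs, and levels are given as CPM, the usual count scaled to a common library total. The floor of 3 counts, the limit that a count of 0 allows, was 0.089 to 0.143 CPM per library, and covers counting error only. The labelled tissues had their defining markers. Summed CPM of 5 proximal tubule genes was 8991 to 10910 in kidney and at most 1.81 in liver and heart, that of 4 hepatocyte genes was 67650 to 104900 in liver, and that of 4 cardiomyocyte genes was 33770 to 43510 in heart. Hepatocyte markers summed to 92.3 to 218.5 CPM in kidney and were mostly Ttr. In heart they summed to 15.3 and 21.5 CPM in replicates 2 and 4 of 10 weeks, to 3.38 CPM in replicate 4 of 12 weeks, and to at most 0.605 CPM in the other 9 libraries. The fold changes of heart Gc with age and between organs are given below with and without the first pair of libraries.

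The genes fell into those of kidney and those of liver. Cyp27b1, Cyp24a1, Vdr, Kl and Pth1r were highest in kidney, and Cyp2r1 and Gc in liver. Per length, in TPM, the same kind of scale with exon length divided out first, the order in kidney was Kl at 444.8 ± 24.7, Pth1r at 378.5 ± 31.7, Vdr at 203.1 ± 19.9, Cyp24a1 at 65.2 ± 31.6, Cyp27b1 at 44.5 ± 35.3, Gc at 13.9 ± 2.94 and Cyp2r1 at 1.27 ± 0.185 TPM (SD, n = 12). Neighbours overlapped for Kl and Pth1r (lowest Kl 407.6, highest Pth1r 438.2 TPM), for Cyp24a1 and Cyp27b1, and for Cyp27b1 and Gc, and the others did not. In liver Gc stood at 3135 ± 136 TPM, far above Cyp2r1 at 21.6 ± 2.33 and Pth1r at 5.70 ± 1.59 TPM. In heart Pth1r led at 4.29 ± 0.908 TPM, and the other members had means of at most 0.225 TPM.

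**Figure D1:**
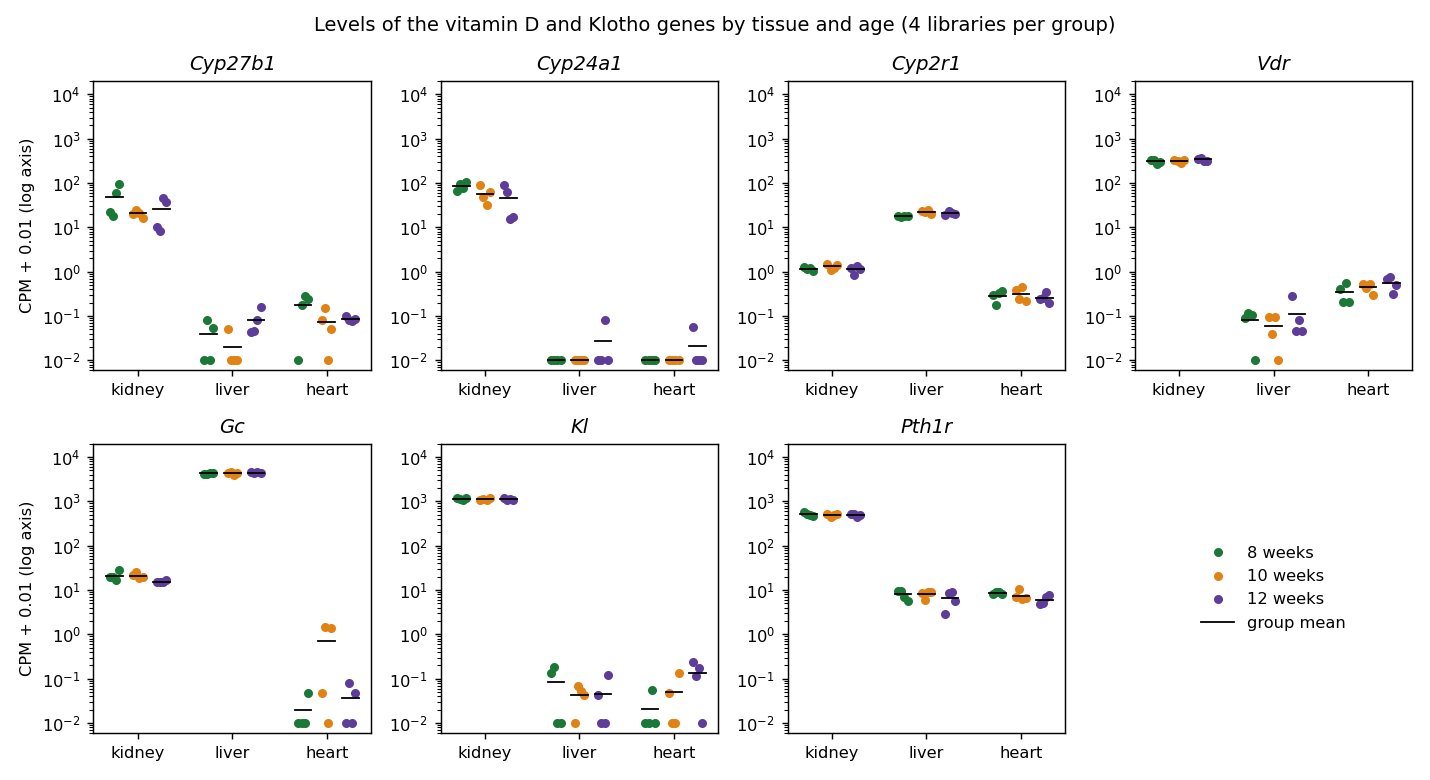
Level of each gene in CPM plus 0.01 on a log axis, by tissue and age; points are libraries (4 per group) and lines are group means. Cyp27b1, Cyp24a1, Vdr, Kl and Pth1r stand highest in kidney and Gc and Cyp2r1 in liver, and within kidney the points of Cyp27b1 run from 8.14 to 95.3 CPM while those of Kl run from 1075 to 1215 CPM.

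Cyp27b1, the activating enzyme, was the most uneven of the genes in kidney. At 8 weeks its level was 21.9, 17.8, 59.9 and 95.3 CPM in replicates 1 to 4. At 10 weeks it was 19.6, 24.9, 21.5 and 16.5 CPM, and at 12 weeks 10.3, 8.14, 45.9 and 37.1 CPM. The 10-week libraries lay close together, whereas at 8 and at 12 weeks replicates 3 and 4 were high and replicates 1 and 2 low, so the ages overlapped. The means were 48.7 ± 36.4, 20.6 ± 3.51 and 25.4 ± 19.0 CPM (SD, n = 4). Over all 12 libraries the highest was 11.7 times the lowest, with counts of 245 to 2964. The log2 fold change was -0.95 ± 0.55 (SE) at 12 against 8 weeks, -1.28 ± 0.56 at 10 against 8 weeks and 0.33 ± 0.57 at 12 against 10 weeks, with adjusted p of 0.537, 0.271 and 0.823 in edgeR's quasi-likelihood test. The values against 8 weeks rested partly on replicate 4 of 8 weeks, without which they were -0.39 at 12 weeks and -0.72 at 10 weeks, and with other libraries left out they reached -1.38 (without replicate 3 of 12 weeks) and -1.55 (without replicate 2 of 8 weeks). Without a filter on low counts the first pair passed the threshold, with adjusted p of 0.00305 and 8.34e-06.

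Cyp24a1, the enzyme that degrades the hormone, was also uneven. Its level was 66.7, 95.1, 76.0 and 108.0 CPM at 8 weeks, 89.1, 47.9, 31.2 and 62.8 CPM at 10 weeks, and 91.0, 62.9, 15.4 and 17.5 CPM at 12 weeks, for replicates 1 to 4. The 8-week libraries stood at 66.7 CPM or more, and replicates 3 and 4 of 12 weeks were the lowest of the 12. The means were 86.5 ± 18.6, 57.7 ± 24.6 and 46.7 ± 36.8 CPM (SD, n = 4), with overlap between the ages. In edgeR's test the log2 fold change was -0.87 ± 0.46 (SE) at 12 against 8 weeks (adjusted p = 0.496), -0.61 ± 0.46 at 10 against 8 (adjusted p = 0.559) and -0.27 ± 0.46 at 12 against 10 weeks (adjusted p = 0.824). With 1 library left out, the first ran from -1.40 (without replicate 1 of 12 weeks) to -0.59 (without replicate 3 of 12 weeks) and the second from -0.88 (without replicate 1 of 10 weeks) to -0.39 (without replicate 3 of 10 weeks). Without a count filter the first and second of these had adjusted p of 0.000892 and 0.0372. Cyp24a1 overlaps Pfdn4 in the annotation, and pairs on the shared stretch are counted for neither gene.

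The opposed pair of enzymes was set side by side in each kidney. At 12 weeks replicates 1 and 2 held 8.82 and 7.72 times as many pairs on Cyp24a1 as on Cyp27b1, and replicates 3 and 4 held 0.335 and 0.472 times as many. At 8 weeks the ratios were 3.05, 5.34, 1.27 and 1.13, and at 10 weeks 4.54, 1.92, 1.45 and 3.81. Cyp27b1 had the larger count in replicates 3 and 4 of 12 weeks and in none of the other 10 kidney libraries. At 8 weeks replicates 3 and 4 had a higher Cyp27b1 level, yet their Cyp24a1 level was not low. The log2 ratio averaged 1.14 ± 1.06 at 8 weeks, 1.40 ± 0.78 at 10 weeks and 0.86 ± 2.53 at 12 weeks (SD, n = 4).

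The log2 ratio differed by -0.28 ± 1.37 (SE) between 12 and 8 weeks, by 0.26 ± 0.66 between 10 and 8 weeks and by -0.54 ± 1.33 between 12 and 10 weeks. None of the 3 differences was larger than the spread between libraries (exact two-sided permutation tests of 4 against 4, p = 0.857, 0.657 and 0.657, each 0.857 after Benjamini-Hochberg adjustment over the 3). The smallest p of this design is 0.0286. Leaving out 1 library turned the sign of each difference, as for 12 against 8 weeks without replicate 3 of 12 weeks (0.53), for 10 against 8 weeks without replicate 4 of 8 weeks (-0.06) and for 12 against 10 weeks without replicate 3 of 12 weeks (0.27).

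**Figure D2:**
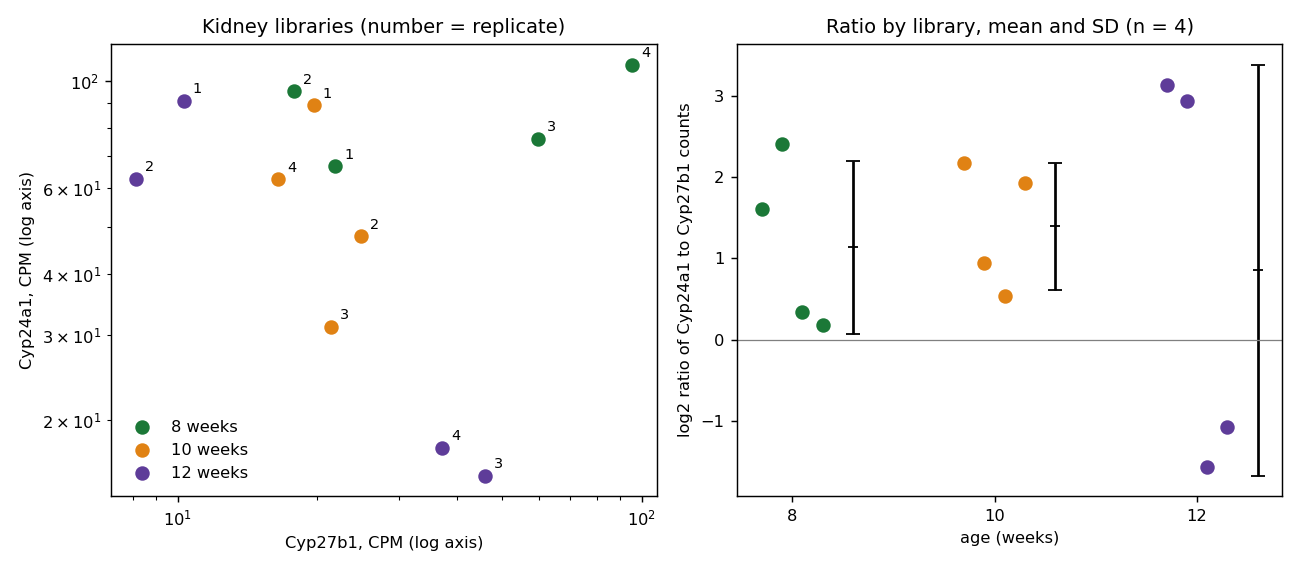
Left, Cyp24a1 against Cyp27b1 in CPM (log axes) for the 12 kidney libraries, coloured by age and numbered by replicate; right, log2 ratio of the Cyp24a1 to the Cyp27b1 count in each library with the mean and SD of each age (n = 4). Replicates 3 and 4 of 12 weeks lie below 0 (-1.58 and -1.08), and the other 10 libraries lie between 0.18 and 3.14.

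Markers of tubule cells varied far less than these enzymes. In replicates 1 to 4 of 12 weeks the summed CPM of the proximal tubule markers was 10910, 9685, 9242 and 9430, and that of the loop and distal tubule markers 4343, 4933, 5026 and 4849. The 4 brown fat markers summed to 18.8, 0.199, 0.328 and 0.546 CPM in the same libraries and reached 43.5 CPM in replicate 2 of 8 weeks. Their part in the enzyme levels was not tested.

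To compare spread, the SD of log2 CPM within an age was taken for each of the 14208 kidney genes with a mean of at least 1 CPM, whose median was 0.131. It was 1.01 for Cyp27b1, exceeded by 36 genes, and 0.846 for Cyp24a1, exceeded by 56 genes. These enzymes thus stood above 99.7% and 99.6% of the genes. Gc had 0.233 and Cyp2r1 0.204, above 76.2% and 70.7% of genes. Vdr (0.120) and Pth1r (0.112) lay below the median, above 44.7% and 41.0%. Kl had 0.064, above 10.9% of genes. Cyp2r1 rested on 25 to 40 counts per kidney library, and Cyp27b1 and Cyp24a1 on at least 245 and 375.

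**Figure D3:**
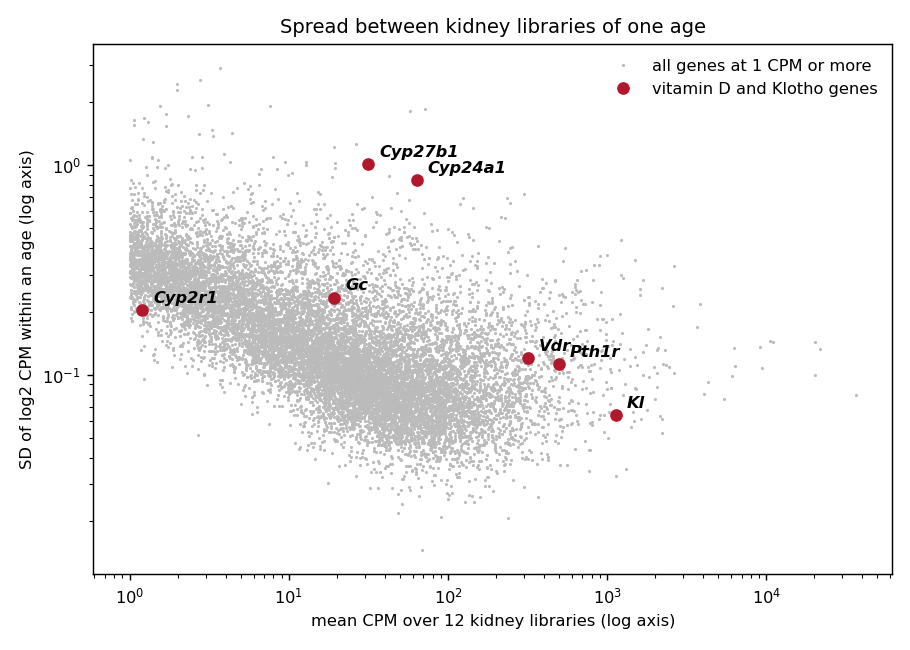
SD of log2 CPM between kidney libraries of one age against mean CPM (both log axes) for 14208 genes (grey) and the 7 members (red). Cyp27b1 (1.01) and Cyp24a1 (0.846) lie above nearly all genes shown, of any level, and Kl (0.064) lies low.

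Kl, which encodes the co-receptor of fibroblast growth factor 23, was the steadiest of the members in kidney. Its level was 1187, 1139, 1086 and 1176 CPM at 8 weeks, 1075, 1138, 1104 and 1205 CPM at 10 weeks, and 1215, 1087, 1156 and 1100 CPM at 12 weeks. The ages covered the same range, and the highest library was 1.13 times the lowest. The log2 fold change was 0.01 ± 0.06 (SE) at 12 against 8 weeks, -0.04 ± 0.06 at 10 against 8 and 0.05 ± 0.06 at 12 against 10 weeks (edgeR, adjusted p of 0.961, 0.797 and 0.720).

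Vdr, the receptor of the hormone, was 333.6, 323.7, 274.9 and 295.6 CPM at 8 weeks, 325.8, 307.3, 280.5 and 335.3 CPM at 10 weeks, and 353.7, 374.8, 313.3 and 322.2 CPM at 12 weeks. The 12-week libraries reached highest but overlapped both other ages. Its log2 fold change was 0.17 ± 0.08 (SE) at 12 against 8 weeks (edgeR, adjusted p = 0.402), 0.01 ± 0.08 at 10 against 8 (adjusted p = 0.970) and 0.17 ± 0.08 at 12 against 10 weeks (adjusted p = 0.308). Pth1r, the parathyroid hormone receptor, was 463.0 to 566.8 CPM at 8 weeks, 438.2 to 528.9 CPM at 10 weeks and 439.0 to 524.4 CPM at 12 weeks. Its log2 fold changes lay between -0.06 and 0.03 (SE 0.07, edgeR, adjusted p of 0.732 to 0.912).

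Gc, the plasma carrier, had a low kidney level that was lowest at 12 weeks. It was 19.5, 19.6, 16.5 and 28.5 CPM at 8 weeks, 21.4, 25.2, 18.7 and 19.4 CPM at 10 weeks, and 15.2, 14.96, 15.5 and 16.7 CPM at 12 weeks. The 12-week libraries lay below all those of 10 weeks and overlapped those of 8 weeks, where replicate 3 was at 16.5 CPM. Its log2 fold change was -0.41 ± 0.15 (SE) at 12 against 8 weeks (edgeR, adjusted p = 0.320) and -0.40 ± 0.15 at 12 against 10 weeks (adjusted p = 0.187), and at 10 against 8 weeks it was -0.01 ± 0.14 (adjusted p = 0.987). Without a count filter the adjusted p of the first pair was 0.00979 and 0.0104. Hepatocyte markers in kidney, led by Ttr, had medians of 163.95, 161.95 and 157.9 CPM at the 3 ages, and their part was not tested. Cyp2r1 was at 0.831 to 1.51 CPM in kidney, with log2 fold changes of -0.17 to 0.16 (SE 0.19, edgeR, adjusted p of 0.711 to 0.987).

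No member passed the threshold with age in kidney in edgeR's test, with 0 of 7 at 12 against 8 weeks, where 0.0567% of the 17649 genes tested were called. At 10 against 8 weeks it was 0 of 7 against 0.929% of all genes, and at 12 against 10 weeks 0 of 7 against 0.482%. At an unadjusted p under 0.05 there were 2, 1 and 1 members, namely Vdr and Gc, Cyp27b1, and Gc, where 11.7%, 16.5% and 16.4% of all genes tested had such a p. DESeq2 and limma-voom also called 0 in each. A fit without the count filter called 3, 2 and 1, and it called 513, 1005 and 938 of all genes in place of 10, 164 and 85. A share of 0 is close to these backgrounds and sets nothing apart about the members.

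Over the 12 kidney libraries, log2 CPM of Cyp27b1 ran opposite to that of Vdr (Pearson r = -0.65, Spearman rho = -0.67) and of Pth1r (r = -0.50, rho = -0.63). With the age means taken out, r was -0.70 for both. Vdr and Pth1r ran together (r = 0.52, rho = 0.71, and 0.68 without the age means). Between Cyp27b1 and Cyp24a1 r was -0.18 over all libraries and -0.57 without the age means, and it was 0.46, -0.42 and -0.97 in the 4 libraries of 8, 10 and 12 weeks. Kl was near 0 with Cyp27b1 (r = 0.07) and with Cyp24a1 (r = 0.05). These values come from the same 12 libraries, share their depth and scaling, and are given without a test.

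In liver, Gc was among the abundant transcripts, at 4088, 4211, 4269 and 4482 CPM at 8 weeks, 4310, 4538, 3978 and 4287 CPM at 10 weeks, and 4613, 4409, 4648 and 4285 CPM at 12 weeks. The ages overlapped, and the highest library was 1.17 times the lowest. Its log2 fold change was 0.10 ± 0.10 (SE) at 12 against 8 weeks, -0.05 ± 0.10 at 10 against 8 and 0.15 ± 0.10 at 12 against 10 weeks (edgeR, adjusted p of 0.675, 0.863 and 0.524). Its SD of log2 CPM within an age, 0.106, was above that of 10.1% of the 12133 liver genes at 1 CPM or more.

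Cyp2r1, the 25-hydroxylase, was 18.5, 17.5, 18.3 and 18.0 CPM in liver at 8 weeks, 22.9, 22.7, 24.3 and 19.8 CPM at 10 weeks, and 18.6, 23.4, 21.1 and 19.6 CPM at 12 weeks. All libraries of 10 and of 12 weeks lay above all those of 8 weeks. The log2 fold change was 0.26 ± 0.10 (SE) at 10 against 8 weeks (edgeR, adjusted p = 0.260), 0.22 ± 0.10 at 12 against 8 (adjusted p = 0.315) and -0.04 ± 0.10 at 12 against 10 weeks (adjusted p = 0.896), none of them past the threshold of 0.05. The libraries of 10 and 12 weeks overlapped. The separation of 12 from 8 weeks held in plain CPM but not in TPM, where the 8-week libraries reached 19.86 and the 12-week libraries started at 19.73. With CPM divided by the scaling factors of the test, neither 10 nor 12 weeks was separate from 8 weeks. These factors were 0.927 in replicate 4 of 8 weeks, 1.06 in replicate 4 of 10 weeks and 0.979 in replicate 1 of 12 weeks. Pth1r was lower and uneven in liver, at 9.56, 9.59, 7.09 and 5.53 CPM at 8 weeks, 8.54, 5.86, 8.85 and 8.87 CPM at 10 weeks, and 2.93, 8.68, 8.82 and 5.55 CPM at 12 weeks. Replicate 1 of 12 weeks stood lowest. Its log2 fold changes were -0.25 ± 0.29, -0.04 ± 0.28 and -0.22 ± 0.28 (SE) for 12 against 8, 10 against 8 and 12 against 10 weeks (edgeR, adjusted p of 0.721, 0.969 and 0.771). The 4 markers of hepatic stellate cells, all detected in liver, summed to 232.3, 286.8, 234.1 and 122.7 CPM at 8 weeks, 225.7, 211.0, 184.7 and 238.2 CPM at 10 weeks, and 115.6, 190.8, 159.2 and 150.5 CPM at 12 weeks. They were lowest in replicate 1 of 12 weeks, then in replicate 4 of 8 weeks and replicate 4 of 12 weeks. Pth1r was also lowest in these libraries (2.93, 5.53 and 5.55 CPM). The match did not hold throughout. Pth1r was similarly low in the lowest library of 10 weeks (5.86 CPM, markers at 211.0 CPM). It was high (8.82 CPM) in a 12-week library with markers at 159.2 CPM. The same markers summed to 366.4 to 566.3 CPM in heart, so they are not particular to liver. Their part in the Pth1r level was not tested.

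Of the 3 members with enough counts in liver (Cyp2r1, Gc and Pth1r), 0 were called in edgeR's test at 12 against 8 weeks (0.239% of 14672 genes were), 0 at 10 against 8 weeks (0.0204%) and 0 at 12 against 10 weeks (0.0545%). At an unadjusted p under 0.05 there was 1 member, Cyp2r1, in each of the first pair and 0 in the last, where 15.1%, 14.3% and 14.1% of all genes tested had such a p, and DESeq2 and limma-voom called 0 in each. The other 4 members fell under the filter. Over all 12 liver libraries Cyp24a1 had 2 counts, Cyp27b1 12, Kl 16 and Vdr 24.

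**Figure D4:**
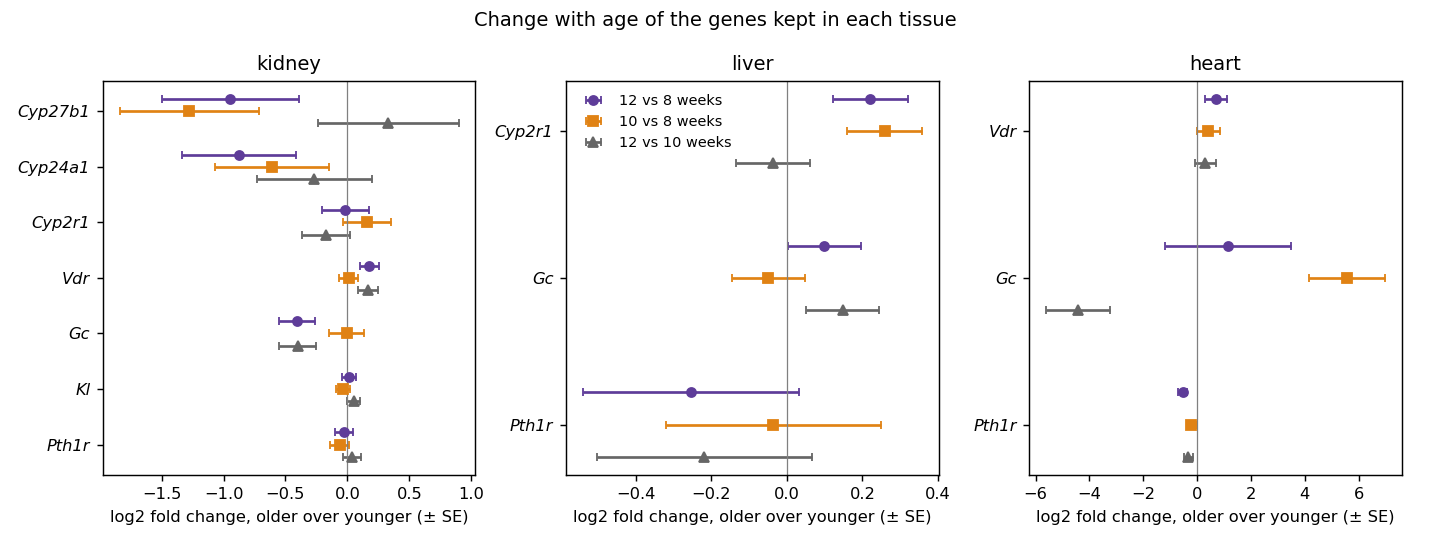
Log2 fold change with age (older over younger) and its SE from edgeR for the members that passed the count filter in each tissue; the 3 panels have axes of different width. In kidney Cyp27b1 and Cyp24a1 have the widest errors (SE 0.46 to 0.57) and Kl the narrowest (0.06), and in heart the axis is set by Gc (5.56 and -4.42).

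In heart, Pth1r was 8.19, 9.16, 9.20 and 8.35 CPM at 8 weeks, 6.82, 10.4, 6.21 and 6.69 CPM at 10 weeks, and 4.90, 5.12, 6.88 and 7.55 CPM at 12 weeks. The 12-week libraries lay below all those of 8 weeks, and the 10-week libraries overlapped both. The log2 fold change was -0.54 ± 0.17 (SE) at 12 against 8 weeks (edgeR, adjusted p = 0.0709), -0.22 ± 0.17 at 10 against 8 (adjusted p = 0.569) and -0.32 ± 0.17 at 12 against 10 weeks (adjusted p = 0.479). DESeq2 gave an adjusted p of 0.0281 for 12 against 8 weeks, and the fit without a count filter 0.00517. Without replicate 2 of 10 weeks it was 0.0350 and without replicate 4 of 12 weeks 0.0266. Pth1r overlaps Myl3, a myosin light chain gene on the other strand that stood at 4830 CPM in heart, and pairs on the shared stretch are left out of both. Vdr was low in heart, at 0.194 to 0.536 CPM at 8 weeks, 0.289 to 0.524 CPM at 10 weeks and 0.302 to 0.747 CPM at 12 weeks (5 to 21 counts), with a log2 fold change of 0.71 ± 0.41 (SE) at 12 against 8 weeks (edgeR, adjusted p = 0.309).

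Gc was counted in heart almost only in replicates 2 and 4 of 10 weeks. The counts were 0, 0, 0 and 1 at 8 weeks, 1, 31, 0 and 33 at 10 weeks, and 0, 2, 0 and 1 at 12 weeks. Alb, the albumin gene of hepatocytes, had 0 in each library of 8 weeks, then 2, 224, 2 and 368, and then 2, 10, 0 and 70. The same libraries were thus high for both, and the part of liver transcripts in the Gc counts was not tested. The log2 fold change of Gc was 5.56 ± 1.40 (SE) at 10 against 8 weeks (edgeR, adjusted p = 0.0691) and -4.42 ± 1.19 at 12 against 10 weeks (adjusted p = 0.227). Without replicate 1 of 10 weeks the first had an adjusted p of 0.0455 and without replicate 3 of 10 weeks 0.0366. Both passed the threshold with the replicate number as a block (log2 5.67 and -4.46, adjusted p of 0.00495 and 0.0239) and without a count filter (adjusted p of 3.14e-08 and 1.12e-06). Equal replicate numbers at different ages are different mice, so the block rests on no known pairing. With replicates 2 and 4 of 10 weeks left out together, Gc no longer passed the count filter, and no other heart library held more than 2 counts.

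Of the 3 members tested in heart (Vdr, Gc and Pth1r), 0 were called in edgeR's test at 12 against 8 weeks, where 4.56% of 15137 genes were, 0 at 10 against 8 weeks (1.06%) and 0 at 12 against 10 weeks (0.0396%). At an unadjusted p under 0.05 there was 1 in each, namely Pth1r, Gc and Gc, where 23.4%, 15.8% and 11.7% of all genes tested had such a p. DESeq2 called 1, 0 and 0 and limma-voom 0 in each. Cyp24a1 had 1 count over all 12 heart libraries, Kl 18, Cyp27b1 31 and Cyp2r1 86.

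**Figure D5:**
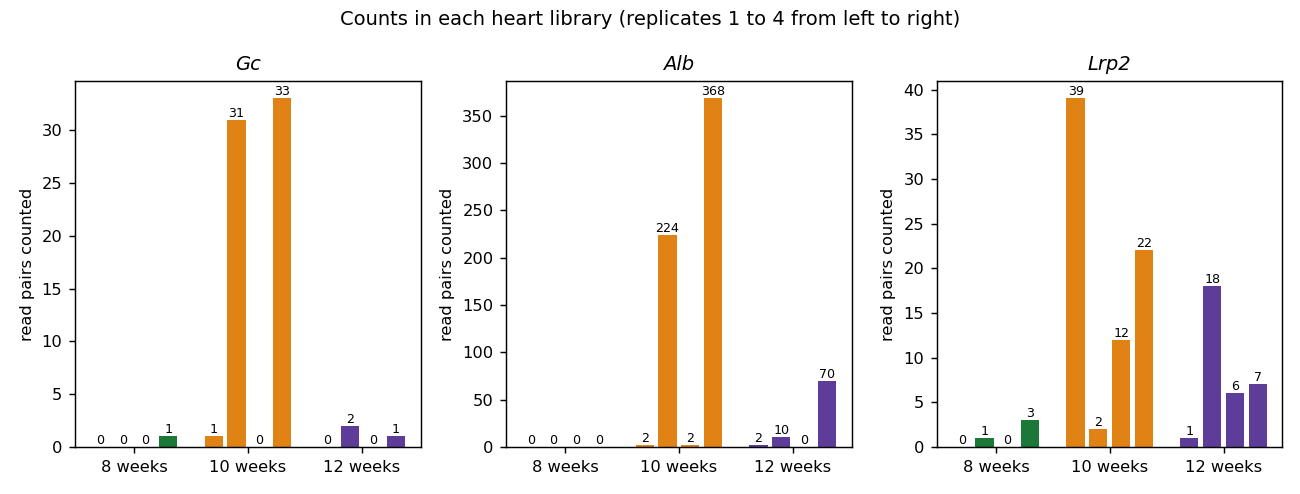
Read pairs counted on Gc, Alb and Lrp2 in each of the 12 heart libraries, as bars with their counts. Gc and Alb stand high in replicates 2 (31 and 224) and 4 (33 and 368) of 10 weeks, and Lrp2 has another pattern, with 39 in replicate 1 of 10 weeks.

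Between organs the differences were large. Pooled over the 12 libraries of a tissue, Kl was 22840 times as high in kidney as in liver (95% exact interval 14060 to 39960) and Cyp24a1 10270 times (2841 to 84770), on 16 and 2 liver counts. Vdr was 4272 times (2871 to 6667), Cyp27b1 868.5 times (497.0 to 1681) and Pth1r 66.5 times (63.9 to 69.3) as high. In the other direction, liver held 227.1 times the Gc level of kidney (221.6 to 232.8) and 17.2 times its Cyp2r1 level (15.5 to 19.1). The Gc counts leave out pairs shared with another gene, a larger share of them in kidney than in liver. These intervals cover counting error only and use plain CPM. The model of all 36 libraries has scaling factors of 1.30 to 1.42 in kidney and 0.724 to 0.821 in liver. Kidney levels therefore come out lower against liver in that model than in plain CPM, and the sizes depend on the scaling.

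In the edgeR model of all 36 libraries, 7 of 7 members were called between kidney and liver, 5 higher in kidney and 2 higher in liver, where 83.1% of the 19716 genes tested were called. The log2 difference of kidney against liver was 13.66 ± 0.18 (SE) for Kl, 12.41 ± 0.60 for Cyp24a1, 11.28 ± 0.15 for Vdr, 9.06 ± 0.48 for Cyp27b1 and 5.26 ± 0.13 for Pth1r. For Cyp2r1 it was -4.88 ± 0.08 and for Gc -8.63 ± 0.20 (adjusted p of 8.47e-15 or less for all 7). Between kidney and heart 7 of 7 were called, all higher in kidney, where 86.1% of all genes were, from 1.55 ± 0.12 for Cyp2r1 to 14.16 ± 0.18 for Kl. The median over all genes tested was 0.16 for kidney against liver and 0.15 for kidney against heart, so the members lay far from it. Of the 69 heart counts of Gc, 64 came from replicates 2 and 4 of 10 weeks, and leaving out that pair raised the log2 difference of Gc from 7.61 to 9.24 for kidney against heart. As most genes are called between organs, the counts are near the background and the sizes carry the description.

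Between liver and heart 4 of 7 members were called, where 84.2% of all genes were. Gc (log2 16.24 ± 0.30, SE) and Cyp2r1 (6.43 ± 0.10) were higher in liver, and Vdr (-2.28 ± 0.30) was lower (edgeR, adjusted p of 2.21e-08 or less). Without replicates 2 and 4 of heart at 10 weeks the value of Gc was 17.86, and the 4 calls remained. Pth1r was at 0.28 ± 0.12 (adjusted p = 0.0374), on a scaling that puts the TMM factors at 0.724 to 0.821 in liver and 0.896 to 0.981 in heart. In plain CPM its ratio of liver to heart was 1.00 (95% exact interval 0.946 to 1.06), and limma-voom gave an adjusted p of 0.11. The call was also lost in 14 of the 36 fits that left out 1 library. For Kl, 16 counts in liver and 18 in heart gave a ratio of 0.851 (0.406 to 1.77), and Cyp24a1, with 2 and 1 counts, 1.91 (0.0997 to 112.9). Cyp27b1 had 12 counts in liver and 31 in heart, a ratio of 0.371 (0.173 to 0.742) by counting error alone.

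The change from 8 to 12 weeks was also compared between organs by an interaction term. No member differed in edgeR's test, with 0 of 7 for kidney against liver (0.304% of all genes were called), 0 of 7 for kidney against heart (0.112%) and 0 of 7 for liver against heart (4.16%). At an unadjusted p under 0.05 there were 0, 1 and 1, both times Kl, whose counts in liver and heart were at most 5 per library, and over all genes the shares were 11.2%, 11.1% and 18.4%. Limma-voom called 0 in each. A difference in the change with age between organs was therefore not shown for any member.

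Other genes of the pathway were taken from 4 lists. In kidney none of the genes tested was called at any age by edgeR, with 0 of 14 for uptake, partners and other enzymes of vitamin D, 0 of 10 for calcium transport and sensing, 0 of 15 for the Klotho and fibroblast growth factor 23 axis and 0 of 7 for parathyroid hormone signalling. At 12 against 8 weeks 1, 1, 2 and 1 of them had an unadjusted p under 0.05, and the list medians of the log2 fold change were -0.02, -0.03, 0.05 and 0.06 against 0.0025 over all genes, of which 11.7% had such a p. At 12 against 10 weeks 8 of the 15 genes of the Klotho axis had an unadjusted p under 0.05, against 16.4% of all genes, and their list median was 0.13 against -0.0009. At 10 against 8 weeks 3 of the 15 had one, against 16.5% of all genes, and the list median was -0.06 against 0.0023. These comparisons share the 10-week libraries. Such counts were not particular to kidney. In liver at 12 against 10 weeks 6 of 14 genes of the Klotho axis had such a p, against 14.1% of all genes. In heart 7 of 15 genes of the vitamin D list had one at 10 against 8 weeks and 6 of 15 at 12 against 8, against 15.8% and 23.4%.

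The list genes named next are those with the highest TPM in kidney. S100g, the calcium carrier calbindin-D9k, was 445.9, 402.6, 421.2 and 512.3 CPM at 8 weeks, 401.5, 618.6, 453.4 and 446.1 CPM at 10 weeks, and 326.9, 325.5, 459.0 and 373.3 CPM at 12 weeks. Calb1, the other calbindin of the distal tubule, was 546.0, 513.3, 507.1 and 782.2 CPM, then 470.2, 574.3, 461.9 and 530.4 CPM, and then 418.9, 372.4, 530.5 and 498.2 CPM. For both, replicates 3 and 4 of 12 weeks were above replicates 1 and 2, as they were for Cyp27b1 and for Trpv5 (19.3, 19.7, 27.1 and 23.7 CPM). This order did not hold for Slc8a1, a sodium and calcium exchanger, at 221.6, 188.2, 241.5 and 200.8 CPM in replicates 1 to 4 of 12 weeks and at 169.3 to 259.3 CPM over all 12. At 8 weeks Cyp27b1 was also high in replicates 3 and 4. There replicate 3 was not above both replicates 1 and 2 for S100g, Calb1 or Trpv5 (23.6, 20.9, 23.0 and 32.3 CPM for Trpv5). Replicate 4, where Cyp27b1 was highest, was above both for each of these genes and for Slc8a1 (259.3 CPM). Trpv5, the calcium channel of the distal tubule, had a mean of 23.4 ± 3.84 CPM (SD, n = 12).

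In the Klotho list, Slc34a1, the phosphate transporter of the proximal tubule, stood at 5404 ± 345 CPM. Its scaffold proteins Pdzk1 and Nherf1 stood at 453.7 ± 36.2 and 194.2 ± 22.8 CPM, and Slc34a3, another phosphate transporter of the same cells, at 66.1 ± 6.20 CPM (SD, n = 12). Among uptake genes, Lrp2, the megalin receptor that takes up filtered Gc, stood at 2585 ± 376 CPM. Its adaptor Dab2 stood at 645.4 ± 24.8 CPM, Amn, the partner of the receptor cubilin, at 146.3 ± 12.5 CPM and Por at 328.2 ± 34.5 CPM. In the parathyroid hormone list, Gnas, which encodes the stimulatory G protein subunit, stood at 529.8 ± 15.9 CPM and Adcy6, an adenylyl cyclase, at 133.3 ± 8.59 CPM. Prkar1a and Prkaca, subunits of protein kinase A, stood at 252.6 ± 10.2 and 59.7 ± 2.74 CPM. Fgf23 had 0 counts in kidney, and Klb, the Klotho relative of liver, had a mean of 0.100 CPM there and 36.1 CPM in liver.

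In liver, Fdx1, the ferredoxin that passes electrons to mitochondrial P450 enzymes, rose. Its level was 91.7 ± 4.14 CPM at 8 weeks, 87.0 ± 11.01 at 10 weeks and 130.6 ± 6.60 at 12 weeks (SD, n = 4), with no overlap of 12 weeks with either other age. The log2 fold change was 0.53 ± 0.09 (SE) at 12 against 8 weeks and 0.67 ± 0.09 at 12 against 10 weeks (edgeR, adjusted p of 0.0336 and 0.0389). With 1 library left out at a time, 4 of 12 fits kept the first call and 5 of 12 the second (adjusted p of 0.0185 to 0.121 and of 0.00957 to 0.122), while the log2 fold change stayed at 0.48 to 0.58 and at 0.61 to 0.73. It was the 1 gene called of the 14 of its list tested in liver, and the other 3 lists had 0 called of 4, 14 and 7, where 0.239% and 0.0545% of all genes were called. Markers of other liver cells also differed between these ages. The 4 Kupffer cell markers summed to 71.8 to 177.0 CPM at 8 weeks, 205.7 to 303.6 CPM at 10 weeks and 108.7 to 120.1 CPM at 12 weeks, and the 3 sinusoidal endothelial markers to 62.47 to 143.9, 122.6 to 144.1 and 62.74 to 87.56 CPM. The hepatocyte markers summed to 88230 to 104900, 67650 to 80930 and 81060 to 103200 CPM. None of these markers was at 0 over the liver libraries, and their part in the Fdx1 level was not tested.

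In heart, Slc8a1 rose from 301.7 ± 25.7 CPM at 8 weeks to 422.0 ± 43.3 at 10 weeks and 465.1 ± 75.2 at 12 weeks (SD, n = 4), a log2 fold change of 0.48 ± 0.11 (SE, adjusted p = 0.0415) and of 0.59 ± 0.11 (edgeR, adjusted p = 0.00893) against 8 weeks. Por, the electron donor of microsomal P450 enzymes, fell by 0.32 ± 0.08 on the log2 scale at 12 against 8 weeks (edgeR, adjusted p = 0.0417), from 50.1 ± 1.90 to 40.9 ± 3.50 CPM. Lrp2 rose at 10 against 8 weeks by 4.10 ± 0.92 (edgeR, adjusted p = 0.0415), on counts of 0, 1, 0 and 3 at 8 weeks and 39, 2, 12 and 22 at 10 weeks. Its 12-week counts were 1, 18, 6 and 7, and limma-voom gave an adjusted p of 0.123 for the rise at 10 weeks. With the summed strand counts the 10-week calls of Slc8a1 (edgeR, adjusted p = 0.0575) and of Lrp2 (adjusted p = 0.0514) were also lost. With 1 library left out at a time, the rise of Slc8a1 at 12 weeks was called in 12 of 12 fits and that at 10 weeks in 5 of 12. The calls of Por and of Lrp2 were kept in 4 of 12 fits each (adjusted p of 0.0159 to 0.115 and of 0.00572 to 0.123). Por and Lrp2 were those called of 15 tested in the vitamin D list and Slc8a1 that of 3 in the calcium list, and the other lists had 0 called of 9 and of 8. Over all heart genes 4.56% were called at 12 against 8 weeks and 1.06% at 10 against 8 weeks.

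For each member the 3 protein-coding genes with the most similar log2 CPM over the 12 libraries of its highest tissue were listed, out of 12778 genes in kidney and 11229 in liver. They were Nek2, Ogfod1 and Ppp2r3a for Cyp27b1 (Pearson r of 0.90 to 0.91), Zgpat, Cntnap1 and Mroh2a for Cyp24a1 (0.84 to 0.88), Pced1a, Asap3 and Neu1 for Vdr (0.86 to 0.87), Ttc12, Selenoo and Ciart for Kl (0.80 to 0.83) and Acbd4, Rbm12b1 and Ovca2 for Pth1r (0.88 to 0.91). In liver they were Idi1, Daxx and Tstd1 for Cyp2r1 (0.84 to 0.87) and Anp32b, Dstn and Apmap for Gc (0.90 to 0.95). The r that 99% of genes did not exceed was between 0.62 and 0.75 for the 7 members. These are descriptions over 12 libraries that share depth and scaling, and they say nothing of shared function.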

How the data were processed

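The deposited files hold read counts per gene for each library, unnormalized, made by the authors with FastQC 0.11.9, cutadapt 4.2 and STAR 2.7.11b (gene counting of STAR) on GRCm39 with Ensembl release 113. The unstranded count column was used. Pairs on overlapping genes are counted for none, so Gc, Pth1r and Cyp24a1 lose the stretches shared with a neighbour. Gc loses the most. In replicate 1 of 8 weeks it had 100456 pairs in liver and 416 in kidney. The summed strand counts, which keep pairs shared with a gene on the other strand, held 143337 and 675 there. Levels are CPM over all counted pairs without a further factor, although the plan named TMM scaling. Factors within a tissue were 0.927 to 1.06, and in the model of all 36 libraries 0.724 to 1.42. TPM used exon lengths of GENCODE with the shared stretches kept in. Total counts were 21031599 to 33637390 per library, and intervals (95%, exact) and floors cover counting error only.

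Age was tested within each tissue by edgeR's quasi-likelihood test (edgeR 4.0.16, R 4.3.3, TMM), on genes with a mean of at least 10 counts and at least 2 non-zero libraries in 1 or more ages, with Benjamini-Hochberg adjustment over all genes and a threshold of 0.05. Tissues, and the change from 8 to 12 weeks between tissues, were tested in 1 model of all 36 libraries. The ratio of Cyp24a1 to Cyp27b1 counts (0.5 added) was tested by exact permutation in scipy 1.17.1. Alternatives were DESeq2 1.42.0, limma-voom (limma 3.58.1), RLE scaling, no count filter, the summed strand counts, the replicate block, another pseudocount (2) and each library left out. On simulated kidney counts of 17649 genes, edgeR found 96% of genes changed by 1 on the log2 scale, with 7.11% false among those found. The changed genes were drawn at random from well-counted genes. The share found therefore does not hold for genes as uneven as Cyp27b1 and Cyp24a1 (SD of 1.01 and 0.846 against a median of 0.131). The liver (14672 genes) gave 85% and 4.69%, and the heart (15137 genes) 96% and 5.31%.

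The members, the 4 pathway lists and the marker lists were chosen with earlier results of these data known. Named were all members, the 3 genes nearest to each by Pearson r of log2 CPM (2 counts added), list genes called with age, and the 4 list genes highest in kidney TPM. P-values of the model fits rest on the spread between the 4 libraries of a group, pooled for each gene over all groups in the fit. They do not measure the spread of any given group, and a library of another age also bears on them. The permutation tests used only the libraries of the ages compared.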

Additional observations from a re-analysis of the deposited data

Results flagged for a closer look

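In 36 groups of 4 libraries with a mean of at least 10 counts, the highest or lowest library was set against its nearest neighbour by Dixon's gap ratio and its 95% critical value for 4 libraries. Of these, 2 groups exceeded it, both for Pth1r at 10 weeks, and chance alone passes about 1 group in 20. In liver the ratio was 0.892, with replicate 2 at 5.86 CPM and the others at 8.54 to 8.87 CPM. In heart it was 0.852, with replicate 2 at 10.4 CPM and the others at 6.21 to 6.82 CPM. The heart library is also one of the pair with hepatocyte transcripts (15.3 CPM summed). The other library of that pair, replicate 4, had 21.5 CPM summed and Pth1r at 6.69 CPM. The part of these transcripts in the Pth1r level was not tested.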

How the results depend on the processing

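The 7 calls between kidney and liver and the 7 between kidney and heart held under each alternative run. Those between liver and heart numbered 3 to 4 with 1 library left out, 3 in limma-voom and 5 without a count filter, where Cyp27b1 was added. Without a count filter the called members numbered 3, 2 and 1 in kidney (12 against 8, 10 against 8 and 12 against 10 weeks), 1 in each heart comparison (Pth1r, Gc and Gc) and 1 in the liver and heart interaction (Kl). Over all genes, that setting called 513, 1005 and 938 of 42077 in kidney. In heart it called 1133, 798 and 308 of 36652. It called 913 of 47683 in the liver and heart interaction and 21317 of 47683 between liver and heart. DESeq2 called 1 in heart at 12 against 8 weeks (Pth1r, adjusted p = 0.0281). An alternative chosen after seeing the data, without replicates 2 and 4 of heart at 10 weeks, also called 1 (Pth1r, log2 -0.55, adjusted p = 0.0447). It changed no count of called members between tissues. With 1 library left out, the count was 0 to 1 in heart at 12 against 8 weeks (1 without replicate 2 of 10 weeks or replicate 4 of 12 weeks), 0 to 1 in heart at 10 against 8 weeks (1 without replicate 1 or 3 of 10 weeks) and 0 to 1 in the liver and heart interaction (1 without replicate 4 of heart at 12 weeks, or of liver at 8 or at 12 weeks), and it did not move in the other comparisons. Over all genes, these interaction fits called 1207 of 19729, 826 of 19734 and 1471 of 19733, in that order.

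The log2 ratio of Cyp24a1 to Cyp27b1 in kidney ranged from -1.04 to 0.53 at 12 against 8 weeks, from -0.0586 to 0.69 at 10 against 8 and from -1.30 to 0.27 at 12 against 10 weeks with 1 library left out. Of 39 member fold changes with age, 12 changed sign in that way, none larger than 0.33 in the fit reported, and 0 of 18 between tissues did. In kidney at 12 against 8 weeks the ranges were -0.0849 to 0.0986 for Cyp2r1, -0.007 to 0.0266 for Kl and -0.0683 to 0.0235 for Pth1r. At 10 against 8 weeks they were -0.035 to 0.0666 for Vdr and -0.11 to 0.18 for Gc. At 12 against 10 weeks they were -0.10 to 0.62 for Cyp27b1, -0.79 to 0.0179 for Cyp24a1 and -0.012 to 0.0875 for Pth1r. In liver they were -0.10 to 0.0137 for Gc and -0.15 to 0.073 for Pth1r at 10 against 8 weeks, and -0.10 to 0.0102 for Cyp2r1 and -0.42 to 0.0256 for Pth1r at 12 against 10 weeks. In limma-voom, kidney Gc at 10 against 8 weeks was 0.0003 and Cyp27b1 at 12 against 10 weeks -0.10. The cause was not tested.

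Equal replicate numbers did not pair the ages of a tissue (r of -0.26 to 0.17). Between tissues of one age the r of equal numbers was -0.01 to 0.26, a hint from the data and not from the labels. The replicate block called 1 member in heart at 10 against 8 weeks (Gc, 5.67, adjusted p = 0.00495) and 1 at 12 against 10 weeks (Gc, -4.46, adjusted p = 0.0239), turned kidney Gc at 10 against 8 weeks to 0.0114 and Cyp27b1 at 12 against 10 weeks to -0.0851, and between liver and heart lost Pth1r (adjusted p = 0.0558) and called Cyp27b1, which has 12 and 31 counts there. It changed no other member call.

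Over all genes, 10, 164 and 85 were called in kidney, 35, 3 and 8 in liver and 691, 161 and 6 in heart. Without a count filter these were 513, 1005 and 938, then 330, 350 and 271, then 1133, 798 and 308. DESeq2 called 137, 680 and 657, then 423, 361 and 483, then 1270, 366 and 71. The summed strand counts gave 257 and 178 in kidney at 10 against 8 and 12 against 10 weeks and 15 in liver at 10 against 8 weeks. The replicate block gave 4 in kidney at 12 against 8 weeks, 5 and 4 in liver at 10 against 8 and 12 against 10 weeks, and 15 in heart at 12 against 10 weeks. Limma-voom called 107 in heart at 10 against 8 weeks, and 1 was called at 12 against 10 weeks without replicates 2 and 4 of 10 weeks. Interactions called were 60 for kidney and liver, 525 without a filter and 105 with the block. For kidney and heart they were 22, then 144 without a filter and 52 in limma-voom. With 1 library left out the counts ran from 4 to 30, 23 to 334 and 26 to 397 in kidney, from 2 to 84, 2 to 84 and 1 to 112 in liver, and from 172 to 1850, 32 to 410 and 2 to 11 in heart. Low counts limit Kl, Cyp24a1, Cyp27b1 and Vdr in liver and heart.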
